A study of Homo sapiens with 8 samples.

Results

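The 31 genes described here make cholesterol and fatty acids or control that synthesis, and were chosen by symbol from a list of the pathway. All 31 were among the 13771 genes of the expression table. The list holds 6 enzymes of the mevalonate steps, 11 enzymes from squalene to cholesterol, 6 genes of SREBP control and sterol transfer, and 8 enzymes of fatty acid synthesis and desaturation. RNA was sequenced from MCF10A, a non-tumorigenic human breast epithelial line, and from DCIS.COM, a line of the same lineage that models ductal carcinoma in situ (DCIS). Both carried a stably integrated lentiviral pCDH vector, either with the long non-coding RNA HOTAIR (pCDH-HOTAIR) or with no insert (pCDH-empty), and all cells, controls included, were selected with puromycin at 10 µg/ml. There were 4 groups of 2 libraries each. MCF10A medium held insulin at 10 µg/mL, epidermal growth factor at 20 ng/mL, hydrocortisone, cholera toxin and horse serum at 5%, whereas the DCIS.COM medium is described with 5% horse serum alone. Cell line and medium therefore cannot be told apart in any comparison of the lines. Both lines are established cell lines, and the sources used here do not say whether the transduced cells were a pool or a clone, or whether the 2 libraries of a group came from separate cultures. The p-values thus measure only the spread between these libraries, which may be technical.

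Cells build cholesterol from acetyl-CoA through mevalonate, the isoprenoid farnesyl diphosphate and squalene, and build fatty acids from acetyl-CoA and malonyl-CoA on fatty acid synthase. Many of these genes are targets of the transcription factors SREBP-1 and SREBP-2, encoded by SREBF1 and SREBF2. SCAP escorts the SREBP precursors out of the endoplasmic reticulum when sterols are low, INSIG1 and INSIG2 hold SCAP back when sterols are plentiful, and the activated factors also raise INSIG1 itself. Lipid synthesis is often raised in breast tumor cells.

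The libraries held 19306864 to 34884841 reads, recovered from the deposited log2 CPM (log2 of the read count scaled to library size). HOTAIR was covered by 40 to 45 reads in MCF10A pCDH-empty and by 4614 to 4827 in MCF10A pCDH-HOTAIR, and by 119 to 140 and 6385 to 7166 reads in the corresponding DCIS.COM groups. Of the 10 basal and other epithelial markers, all 10 had values, with a summed level of 15632 to 17648 CPM in the MCF10A libraries and 6454 to 8054 CPM in the DCIS.COM libraries. In DCIS.COM 6 of the 10 were called lower and 4 higher than in MCF10A. The basal keratin KRT5 was lower in DCIS.COM (log2 fold change -2.61 ± 0.09, SE, with the empty vector) and the simple-epithelial keratin KRT8 was higher (2.35 ± 0.13), while the basal factor TP63 was higher (0.75) and the epithelial cadherin CDH1 lower (-0.59). In bulk RNA, fewer cells of a type and less RNA per cell cannot be told apart. Of the luminal hormone receptor markers 4 of 5 had values (summed 15.9 to 17.2 CPM in MCF10A, 62.7 to 74.7 CPM in DCIS.COM). With the empty vector 3 of them were called higher in DCIS.COM. The estrogen receptor ESR1 was not, with a mean log2 CPM of 1.67 in MCF10A and 1.22 in DCIS.COM (1.36 and 1.47 with HOTAIR). PRLR differed most, from -1.89 to 4.98, with 8 and 4 reads in MCF10A pCDH-empty. Of the fibroblast list only POSTN (12.2 to 23.9 CPM in MCF10A, 0.0717 to 0.0998 CPM in DCIS.COM), of the leukocyte list only CD68 and CD14 (summed 41.5 to 47.3 and 5.78 to 6.70 CPM) and of the endothelial list only PECAM1 (1.77 to 2.77 and 10.2 to 13.4 CPM) had values. Their part in the differences between the lines was not tested.

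The library DCIS.COM pCDH-empty 1 stood apart from its replicate. Among genes with under 40% GC in their exons it lay a median of 0.35 below DCIS.COM pCDH-empty 2 on the log2 scale, and among genes with at least 55% GC it lay a median of 0.16 above it, while the same medians in the other 3 groups lay between -0.01 and 0.02. The transcripts RN7SL1 and RN7SL2, the RNA of the signal recognition particle, took 18.9% of its reads and 11.1% to 14.95% of the others. The members followed the same course. Of the 11 members with under 45% GC, 10 were lower in DCIS.COM pCDH-empty 1 than in its replicate (by a median of 0.37 over the 11), and of the 11 members with 55% GC or more, 9 were higher (median 0.13). Across the 31 members the difference between the 2 DCIS.COM pCDH-empty libraries went with GC content with a Pearson r of 0.75 and a Spearman rho of 0.70, against 0.17 and 0.24 for the 2 DCIS.COM pCDH-HOTAIR libraries. These are correlations across genes of the same libraries, and genes are not independent replicates. The widest gap was that of IDI1, which makes the isoprenoid building block dimethylallyl diphosphate, at a log2 CPM of 5.80 and 6.91. Values without this library stand beside several of the results below.

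**Figure D1:**
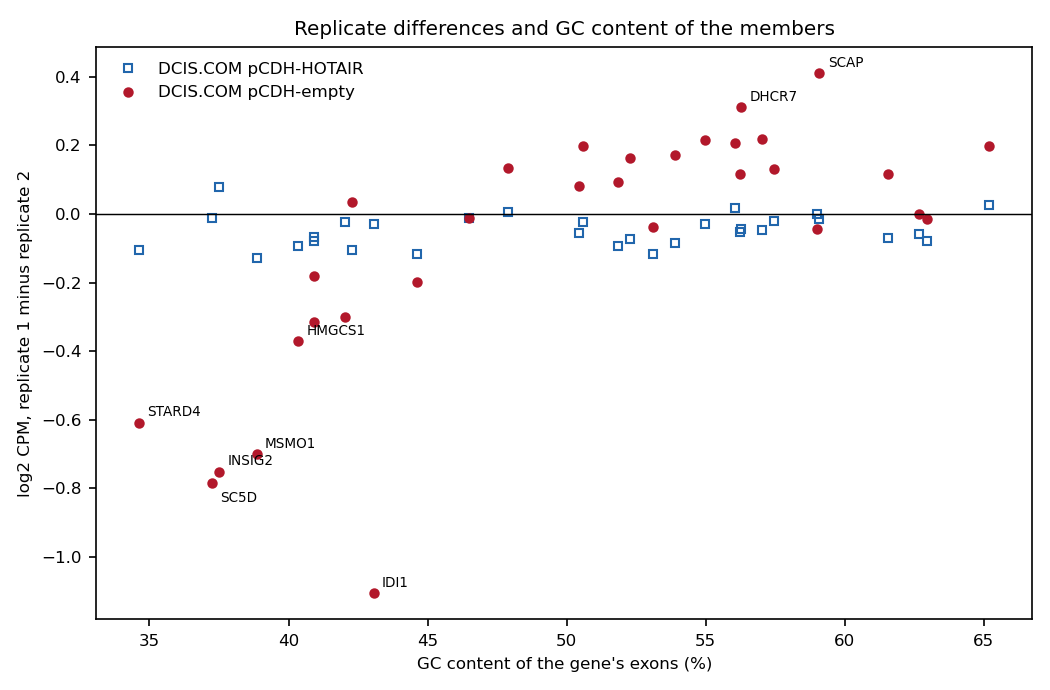
Each point is a member gene, placed by the GC content of its exons (horizontal axis, %) and by the log2 CPM of replicate 1 minus replicate 2 (vertical axis) in DCIS.COM pCDH-empty (filled circles) and DCIS.COM pCDH-HOTAIR (open squares). The circles run from -1.11 for IDI1 to 0.41 for SCAP and lie mostly below 0 under 45% GC, whereas the squares stay near 0.

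Differential expression was tested over all 13771 genes with limma, and a gene was called when its Benjamini-Hochberg adjusted p was under 0.05 and its fold change at least 1.5. The first question was how the synthesis genes differ between the lines without added HOTAIR. In the pCDH-empty libraries 22 members were called higher and 1 lower in DCIS.COM than in MCF10A, so 23 of 31 were called. The background was high, because 46.3% of all genes were called between the lines, 22.5% higher and 23.8% lower. The members' share called higher was 71.0%. Their median log2 fold change was 1.19, beside -0.00012 for all genes. The 4 pCDH-HOTAIR libraries gave 23 members higher and 1 lower, against 43.7% of all genes called and 22.0% called higher, with a member median of 1.36. Their fold changes share no library with the first comparison. Both tests took 1 estimate of the spread from all 8 libraries, however, and both compare the same lines in the same media. The same 23 members were called, in the same direction, with both vectors, and MSMO1 was called with pCDH-HOTAIR alone.

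**Figure D2:**
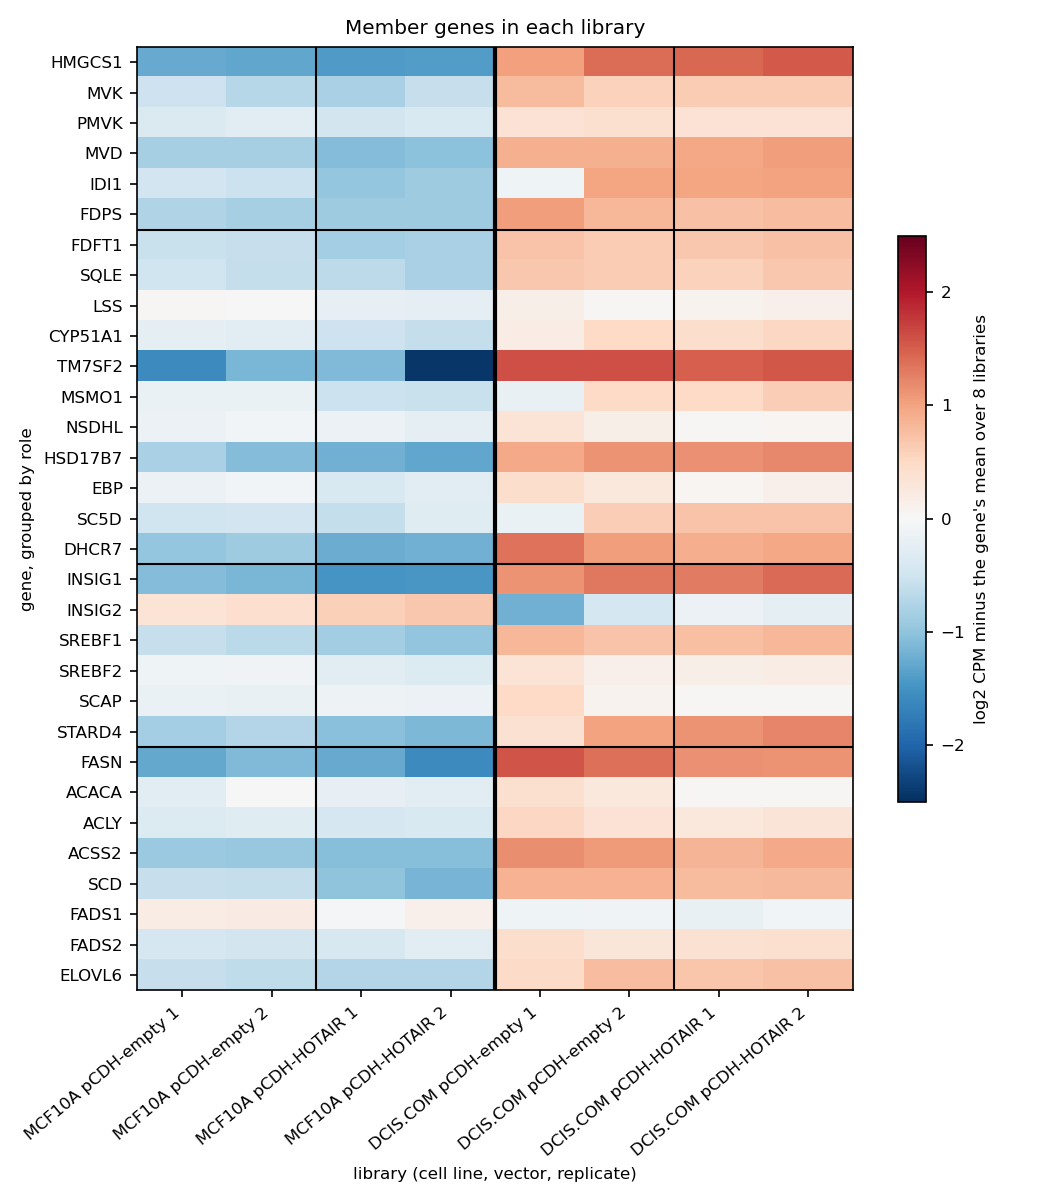
Rows are the 31 member genes grouped by role (mevalonate steps, squalene to cholesterol, SREBP control and sterol transfer, fatty acid synthesis and desaturation, divided by black lines) and columns the 8 libraries, and color gives log2 CPM minus the gene's mean over the 8 libraries. Most rows are blue in the 4 MCF10A and red in the 4 DCIS.COM libraries, while INSIG2 and, more faintly, FADS1 run the other way. For IDI1, MSMO1 and SC5D, DCIS.COM pCDH-empty 1 lies slightly below the gene's mean, on the blue side, unlike its replicate.

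Of the mevalonate steps, 6 of 6 were called higher in DCIS.COM with either vector, with a median log2 fold change of 1.51 in the pCDH-empty libraries. HMGCS1, the cytosolic synthase that forms HMG-CoA, had a log2 CPM of 4.55 and 4.52 in MCF10A pCDH-empty, 4.40 and 4.41 in MCF10A pCDH-HOTAIR, 6.84 and 7.21 in DCIS.COM pCDH-empty and 7.24 and 7.34 in DCIS.COM pCDH-HOTAIR. All 4 DCIS.COM libraries lay above all 4 MCF10A libraries, and the lines differed 5.62-fold with the empty vector (log2 fold change 2.49 ± 0.11, SE, limma adjusted p = 4.6e-07). FDPS, which makes farnesyl diphosphate, stood at 6.51 and 6.44 in MCF10A pCDH-empty and 8.31 and 8.09 in DCIS.COM pCDH-empty, with 6.37 and 6.38 and then 8.00 and 8.03 in the pCDH-HOTAIR libraries. It was 3.30-fold higher in DCIS.COM (1.72 ± 0.08, limma adjusted p = 4.59e-07), without overlap of the lines. MVD, the decarboxylase that yields isopentenyl diphosphate, measured 4.35 and 4.35 with the empty vector and 4.10 and 4.14 with HOTAIR in MCF10A, and 6.06 and 6.08 and then 6.14 and 6.22 in DCIS.COM. The kinases MVK and PMVK and the isomerase IDI1 had smaller log2 fold changes of 1.31, 0.69 and 0.95. PMVK fell short of the fold threshold after correction for gene length (0.57) or GC content (0.58). IDI1 (SE 0.29, limma adjusted p = 0.0178) was 1.51 above MCF10A without DCIS.COM pCDH-empty 1 and 0.40, and no longer called, without DCIS.COM pCDH-empty 2. It also lost its call without either MCF10A pCDH-empty library, at 0.98 and 0.92.

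Between squalene and cholesterol, 7 of 11 enzymes were called higher in DCIS.COM with the empty vector and 8 of 11 with HOTAIR. TM7SF2, a sterol reductase, had the largest log2 fold change of the members, with a log2 CPM of 0.57 and 1.02 in MCF10A pCDH-empty, 1.06 and -0.28 in MCF10A pCDH-HOTAIR, 3.76 and 3.76 in DCIS.COM pCDH-empty and 3.64 and 3.70 in DCIS.COM pCDH-HOTAIR. It differed 7.81-fold between the lines (2.97 ± 0.38, limma adjusted p = 0.000181), and its wide error goes with few reads in MCF10A, down to 15 reads in a library. DHCR7, which catalyses the last step to cholesterol, read 5.35 and 5.41 in MCF10A pCDH-empty, 5.07 and 5.10 in MCF10A pCDH-HOTAIR, 7.67 and 7.36 in DCIS.COM pCDH-empty and 7.22 and 7.27 in DCIS.COM pCDH-HOTAIR. Its log2 fold change between the lines was 2.13 ± 0.10 (limma adjusted p = 5.16e-07), again with no overlap. HSD17B7, a sterol ketoreductase, had 2.83 and 2.55 in MCF10A pCDH-empty, 2.43 and 2.33 in MCF10A pCDH-HOTAIR, 4.58 and 4.76 in DCIS.COM pCDH-empty and 4.77 and 4.84 in DCIS.COM pCDH-HOTAIR (1.98 ± 0.12 between the pCDH-empty groups, limma adjusted p = 2.61e-06). FDFT1, squalene synthase, and SQLE, the rate-limiting squalene epoxidase, were called at 1.24 and 1.19, and CYP51A1 and SC5D at 0.60 and 0.71. CYP51A1 lay just past the fold threshold, and without MCF10A pCDH-empty 2 (0.57) or DCIS.COM pCDH-empty 2 (0.44) it was not called. SC5D lost its call without DCIS.COM pCDH-empty 2 (0.31) and without either MCF10A pCDH-empty library (0.70 and 0.71), and was 1.10 without DCIS.COM pCDH-empty 1.

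The lanosterol synthase LSS, the demethylation enzymes MSMO1 and NSDHL and the isomerase EBP were not called with the empty vector, at log2 fold changes of 0.07, 0.32, 0.36 and 0.46. LSS had a log2 CPM of 6.54 and 6.52 in MCF10A pCDH-empty, 6.32 and 6.30 in MCF10A pCDH-HOTAIR, 6.66 and 6.54 in DCIS.COM pCDH-empty and 6.60 and 6.65 in DCIS.COM pCDH-HOTAIR. The 95% interval of its log2 fold change in the pCDH-empty libraries ran from -0.08 to 0.22, below those of its neighbours in the pathway, SQLE (1.02 to 1.37) and CYP51A1 (0.37 to 0.83). MSMO1, called with pCDH-HOTAIR alone, stood at 6.19 and 6.19 in MCF10A pCDH-empty, 6.16 and 6.86 in DCIS.COM pCDH-empty, 5.82 and 5.81 in MCF10A pCDH-HOTAIR and 6.85 and 6.98 in DCIS.COM pCDH-HOTAIR. Its pCDH-empty groups overlapped only through DCIS.COM pCDH-empty 1, and without that library its log2 fold change was 0.67. The test of the difference between the vectors gave a limma adjusted p of 0.43 for MSMO1.

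Among the regulators, SREBF1 was higher in DCIS.COM, while SREBF2 and SCAP stayed under the fold threshold with both vectors. SREBF1 had 7.35 and 7.26 in MCF10A pCDH-empty, 7.06 and 6.94 in MCF10A pCDH-HOTAIR, 8.75 and 8.64 in DCIS.COM pCDH-empty and 8.68 and 8.75 in DCIS.COM pCDH-HOTAIR on the log2 CPM scale. The pCDH-empty groups differed 2.62-fold (1.39 ± 0.07, limma adjusted p = 1.15e-06). SREBF2 measured 6.28 and 6.29, 6.11 and 6.04, 6.73 and 6.51, and 6.53 and 6.58 in the same order of groups, a log2 fold change between the lines of 0.33 ± 0.08 (limma adjusted p = 0.00677). SCAP read 6.15 and 6.14 in MCF10A pCDH-empty, 6.20 and 6.18 in MCF10A pCDH-HOTAIR, 6.82 and 6.41 in DCIS.COM pCDH-empty and 6.35 and 6.37 in DCIS.COM pCDH-HOTAIR. The log2 fold change of SCAP between the lines was 0.47 with the empty vector, 0.26 without DCIS.COM pCDH-empty 1, and 0.17 with HOTAIR.

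The INSIG pair differed between the lines in opposite directions. INSIG1 (chromosome 7, 155089486 to 155101945, plus strand, GRCh37) had a log2 CPM of 5.37 and 5.31 in MCF10A pCDH-empty, 4.98 and 5.01 in MCF10A pCDH-HOTAIR, 7.57 and 7.77 in DCIS.COM pCDH-empty and 7.75 and 7.87 in DCIS.COM pCDH-HOTAIR, a 5.02-fold difference with the empty vector (2.33 ± 0.08, limma adjusted p = 1.23e-07). INSIG2 (chromosome 2, 118846028 to 118868573, plus strand, GRCh37) read 4.73 and 4.82 in MCF10A pCDH-empty, 4.98 and 5.06 in MCF10A pCDH-HOTAIR, 3.20 and 3.96 in DCIS.COM pCDH-empty and 4.25 and 4.17 in DCIS.COM pCDH-HOTAIR. It was the only member called lower in DCIS.COM, at -1.20 ± 0.21 with the empty vector (limma adjusted p = 0.00107) and -0.82 ± 0.21 with HOTAIR (limma adjusted p = 0.00831). The value was -0.82 without DCIS.COM pCDH-empty 1 and still called, and the difference with HOTAIR lost its call without MCF10A pCDH-HOTAIR 2, at -0.78. Per kilobase of exon, INSIG1 and INSIG2 had group means of 3.47 and 2.80 log2 CPM in MCF10A pCDH-empty and 5.80 and 1.60 in DCIS.COM pCDH-empty. STARD4, a carrier that moves sterols between membranes, had 3.15 and 3.27 in MCF10A pCDH-empty, 2.96 and 2.88 in MCF10A pCDH-HOTAIR, 4.39 and 5.00 in DCIS.COM pCDH-empty and 5.11 and 5.22 in DCIS.COM pCDH-HOTAIR, and was called higher at 1.48 ± 0.18 (limma adjusted p = 0.000131).

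Of the fatty acid enzymes, 6 of 8 were called higher in DCIS.COM with either vector. FASN, fatty acid synthase, had 7.37 and 7.54 in MCF10A pCDH-empty, 7.39 and 7.05 in MCF10A pCDH-HOTAIR, 10.23 and 10.03 in DCIS.COM pCDH-empty and 9.80 and 9.77 in DCIS.COM pCDH-HOTAIR, a 6.36-fold difference with the empty vector (2.67 ± 0.12, limma adjusted p = 4.69e-07). ACSS2, which makes cytosolic acetyl-CoA from acetate, stood at 4.53 and 4.51, 4.39 and 4.39, 6.62 and 6.53, and 6.32 and 6.41 in the same order (2.06 ± 0.07 between the pCDH-empty groups, limma adjusted p = 1.07e-07). ACLY, which makes the same product from citrate, was called at 0.76, the elongase ELOVL6 at 1.23, the stearoyl-CoA desaturase SCD at 1.45 and the desaturase FADS2 at 0.81. ACACA, the acetyl-CoA carboxylase that makes malonyl-CoA, had 6.81 and 7.07 in MCF10A pCDH-empty, 6.85 and 6.80 in MCF10A pCDH-HOTAIR, 7.47 and 7.34 in DCIS.COM pCDH-empty and 7.10 and 7.09 in DCIS.COM pCDH-HOTAIR, and at 0.46 was under the fold threshold. FADS1 was the other member besides INSIG2 with a negative log2 fold change, at -0.29 with the empty vector and -0.16 with HOTAIR. FADS1 and FADS2 lie on opposite strands and share 490 bases of exon, and since the sources do not state that counting used strand, their reads cannot be told apart there. The same holds for SREBF1 with RAI1 (556 bases) and MVK with MMAB (225 bases). It also holds for exons shared with long non-coding RNAs on the other strand, the widest in HMGCS1 (2497 bases), SREBF2 (731), FDPS (693) and IDI1 (643). Reads of FDPS, CYP51A1, IDI1, HSD17B7 and SCD could be shared with annotated pseudogenes.

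**Figure D3:**
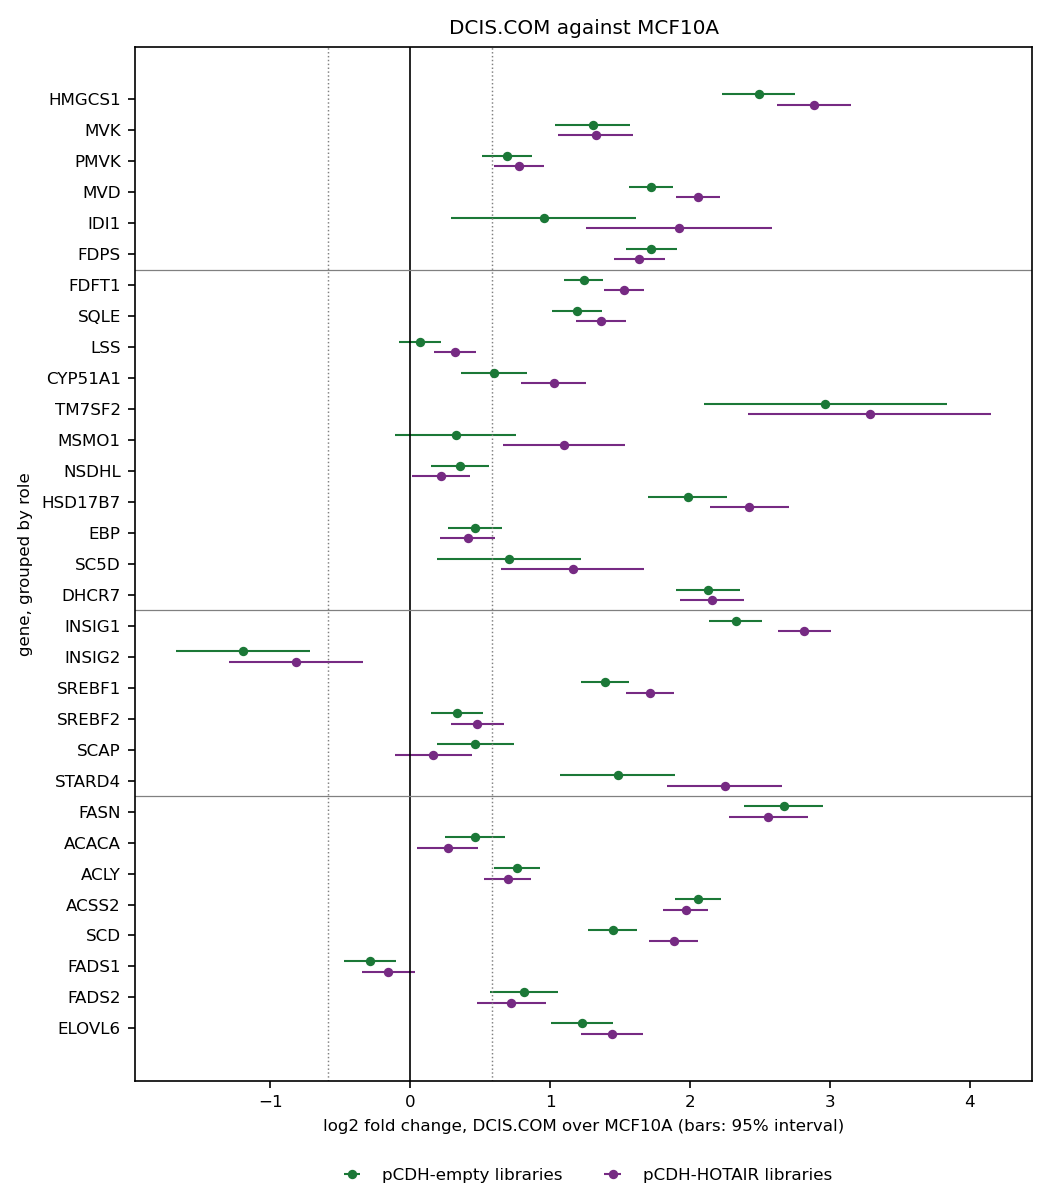
Points give each member's log2 fold change of DCIS.COM over MCF10A (horizontal axis) in the pCDH-empty libraries (green) and the pCDH-HOTAIR libraries (purple), bars the 95% interval from limma, and dotted lines the 1.5-fold threshold. Values run from -1.20 (INSIG2) to 2.97 (TM7SF2) with the empty vector and from -0.82 to 3.29 with HOTAIR.

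Per kilobase of exon, SCD had the highest level of the members in each of the 4 groups, with group means of 7.22, 6.71, 8.66 and 8.59 log2 CPM in MCF10A pCDH-empty, MCF10A pCDH-HOTAIR, DCIS.COM pCDH-empty and DCIS.COM pCDH-HOTAIR. ACLY was next in both MCF10A groups (5.63 and 5.56), and FASN was next in both DCIS.COM groups (6.91 and 6.56), where ACLY was in rank 3. FASN had rank 10 of 31 in MCF10A pCDH-empty (4.24), beside SREBF1 at 4.26. The lowest levels per kilobase were those of TM7SF2 in MCF10A (-0.98 and -1.38) and of FADS2 in DCIS.COM (0.10 and 0.12).

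Promoter sequences of RefSeq (GRCh38.p14, 250 bases before to 50 after the annotated start) were found for 28 of the 31 members, FASN, FDFT1 and SQLE being the others. They were searched on both strands for the sterol response element of SREBP (TCACNCCAC), the NF-Y box (CCAAT) that often stands beside it, and the Sp1 box (GGGCGG). The SREBP letters were in 1 of 28 members, SREBF2, and in 1.39% of the 27305 genes of the promoter table. Only these exact letters in these windows were sought, so a missing match does not show that a site is absent. The NF-Y letters were in 21 of 28 members (75.0%) and in 39.7% of all genes, and the Sp1 letters in 27 of 28 (96.4%) and 48.3%, or 43.5% and 76.2% of the tested genes with a promoter window. By call with the empty vector, the NF-Y letters were in 15 of 19 members called higher, in 6 of 8 not called, and not in the 1 called lower, INSIG2. Promoters of 4 members are shown to put these letters beside the measurements. SREBF2 has the SREBP match, TM7SF2 and INSIG1 were the largest rises with a single promoter window, and INSIG2 was the member called lower. TM7SF2, INSIG1 and INSIG2 were chosen after their values were seen. Capitals mark SREBP and NF-Y matches, the latter reading ATTGG where they lie on the other strand, and a match is a description of letters, not a shown binding site.
SREBF2, chr22:41832855-41833154, plus strand: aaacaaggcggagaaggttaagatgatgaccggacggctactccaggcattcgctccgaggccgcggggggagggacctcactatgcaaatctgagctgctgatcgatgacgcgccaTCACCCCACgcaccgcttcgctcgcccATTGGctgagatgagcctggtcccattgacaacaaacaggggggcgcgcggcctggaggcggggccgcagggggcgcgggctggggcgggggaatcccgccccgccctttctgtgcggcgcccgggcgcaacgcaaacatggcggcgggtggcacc
TM7SF2, chr11:65111622-65111921, plus strand: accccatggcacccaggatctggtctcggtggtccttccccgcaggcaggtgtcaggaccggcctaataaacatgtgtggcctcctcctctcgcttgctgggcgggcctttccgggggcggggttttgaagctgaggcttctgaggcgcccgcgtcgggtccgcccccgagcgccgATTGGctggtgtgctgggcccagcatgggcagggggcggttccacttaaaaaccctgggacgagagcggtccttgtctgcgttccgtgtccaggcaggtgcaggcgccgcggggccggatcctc
INSIG1, chr7:155297628-155297927, plus strand: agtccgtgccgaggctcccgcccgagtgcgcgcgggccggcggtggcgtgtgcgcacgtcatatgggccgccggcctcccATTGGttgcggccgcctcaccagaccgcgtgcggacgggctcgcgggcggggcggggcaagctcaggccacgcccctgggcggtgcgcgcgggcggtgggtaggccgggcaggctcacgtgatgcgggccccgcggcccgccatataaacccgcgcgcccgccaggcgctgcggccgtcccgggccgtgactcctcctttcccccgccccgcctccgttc
INSIG2, chr2:118088221-118088520, plus strand: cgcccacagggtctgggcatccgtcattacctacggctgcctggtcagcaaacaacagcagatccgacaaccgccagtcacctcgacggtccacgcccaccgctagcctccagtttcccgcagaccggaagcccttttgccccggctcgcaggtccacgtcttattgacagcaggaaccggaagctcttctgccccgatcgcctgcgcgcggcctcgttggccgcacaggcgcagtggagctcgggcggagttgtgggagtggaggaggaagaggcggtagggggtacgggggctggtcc
The first 3 each hold an NF-Y match, SREBF2 also holds the SREBP match further from the start, and the INSIG2 window, 1 of 2 for this gene, holds neither.

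The second question was what added HOTAIR did to these genes in each line. In MCF10A, 0 of 31 members were called, and 0.0218% of all genes were. At an unadjusted p under 0.05, 12 members were lower with HOTAIR and none higher. At that level 2.88% of all genes were lower, and 607 of the 13771 genes were higher. Both pCDH-HOTAIR libraries lay below both pCDH-empty libraries for 22 of 31 members, beside 24.8% of all genes. The log2 fold change was negative for 27 of 31 members, with SC5D, INSIG2, SCAP and FADS2 as the others, and for 7128 of the 13771 genes. The members' median was -0.21, and that of all genes -0.0055. The mean log2 CPM over the 31 members in MCF10A was 5.43 and 5.44 with the empty vector, and 5.27 and 5.23 with HOTAIR. The MCF10A groups also differed in depth and composition. The pCDH-empty libraries held 31598168 and 27005146 reads, of which RN7SL1 and RN7SL2 took 14.95% and 13.7%. The pCDH-HOTAIR libraries held 19306864 and 19675113 reads, with 12.5% and 11.1%. The part of these differences in the member values was not tested. With the spread estimated without DCIS.COM pCDH-empty 1, 22 members had a p under 0.05, 21 of them lower, and 9.53% of all genes were lower at that level. Without MCF10A pCDH-HOTAIR 2 there were 7, all lower, beside 1.93% of all genes.

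SCD had the smallest p. It measured 9.61 and 9.60 log2 CPM in MCF10A pCDH-empty and 9.18 and 9.02 in MCF10A pCDH-HOTAIR, a log2 fold change of -0.50 ± 0.08 (limma adjusted p = 0.155). The other settings included a fit of only the 4 libraries of the comparison. Over them, single left-out libraries apart, the limma adjusted p of SCD ran from 0.0487 to 0.247. With a library left out it ran from 0.00632 (without DCIS.COM pCDH-empty 1, where only the spread changes) to 0.613. The log2 fold change then ran from -0.59 (without MCF10A pCDH-HOTAIR 1, limma adjusted p = 0.355) to -0.42, and SCD was called under none of these settings. FDFT1 had 6.86 and 6.84 against 6.56 and 6.60 (-0.27 ± 0.06, limma adjusted p = 0.305), and in DCIS.COM 8.13 and 8.05 with the empty vector against 8.08 and 8.14 with HOTAIR. The regulators INSIG1 and SREBF1, whose libraries are given above, had log2 fold changes of -0.34 ± 0.08 and -0.30 ± 0.07 (limma adjusted p = 0.317 and 0.33), with no overlap between the vectors. LSS and MVD had -0.22 and -0.23 (limma adjusted p = 0.445 and 0.46). The other 6 with an unadjusted p under 0.05 were DHCR7, CYP51A1, SREBF2, HSD17B7, SQLE and EBP, at -0.31 to -0.19. By role these were 1 of 6 mevalonate enzymes, 7 of 11 enzymes from squalene to cholesterol, 3 of 6 regulators and 1 of 8 fatty acid enzymes. SCD in DCIS.COM stood at 11.05 and 11.06 with the empty vector and 10.98 and 10.99 with HOTAIR, a log2 fold change of -0.07 with a 95% interval from -0.24 to 0.10.

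**Figure D4:**
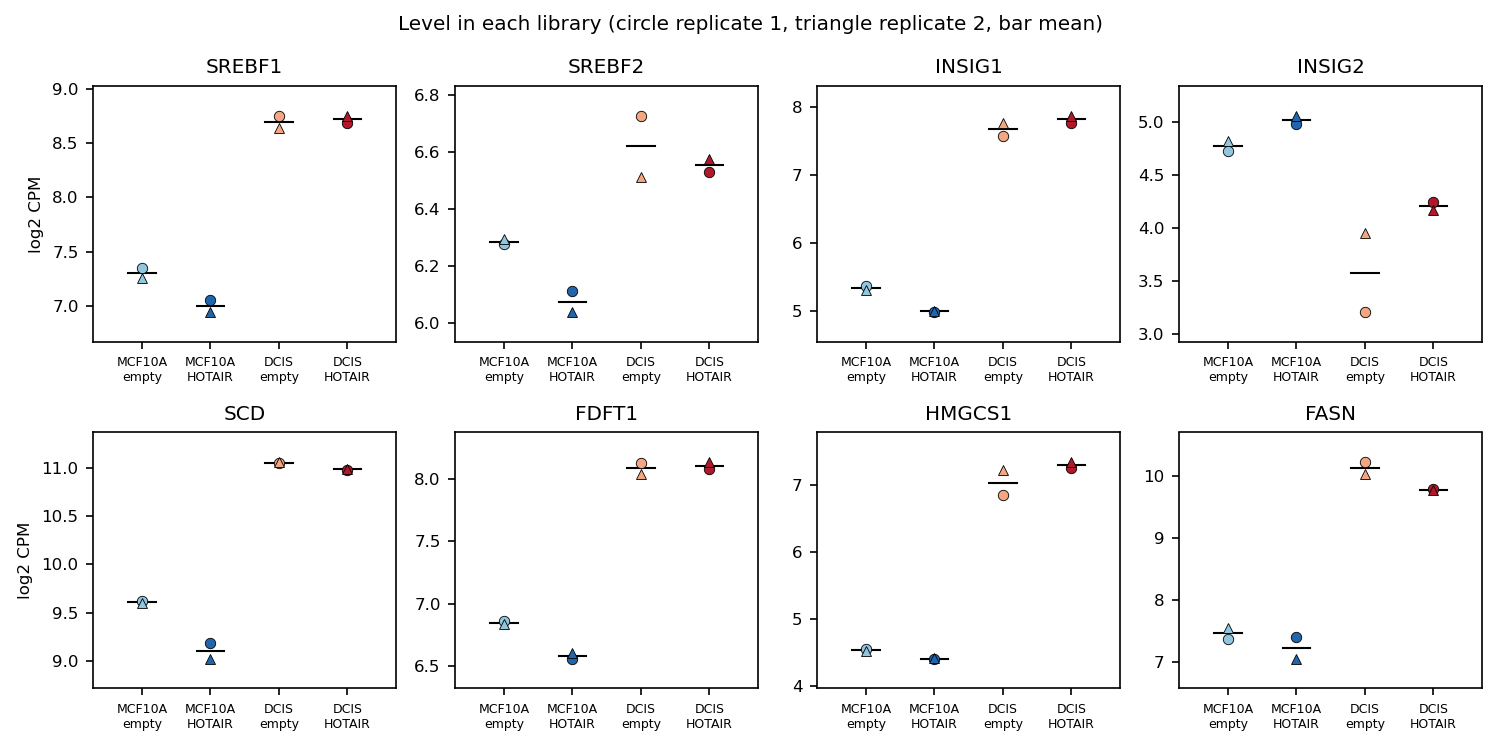
Each panel shows the log2 CPM (vertical axis, which differs between panels and does not start at 0) of a member in the 4 groups, with circles for replicate 1, triangles for replicate 2 and a bar for the mean. In MCF10A the HOTAIR libraries lie below the empty-vector libraries for SREBF1, SREBF2, INSIG1, SCD, FDFT1 and HMGCS1. In DCIS.COM the replicates of pCDH-empty lie apart for INSIG2, at 3.20 and 3.96.

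In DCIS.COM 0 of 31 members were called with HOTAIR, and 0.0871% of all genes were. At an unadjusted p under 0.05, 7 members were lower (8.41% of all genes) and 3 higher (9.08% of all genes), a share of 22.6% and 9.68% of the members. Both HOTAIR libraries lay below both empty-vector libraries for 12 members (24.5% of all genes) and above them for 6 (24.7% of all genes). The median of the members was -0.02 and that of all genes 0.01. The 7 lower members were ACACA (-0.31 ± 0.09, limma adjusted p = 0.229), EBP, ACSS2, FASN, DHCR7, NSDHL and FDPS, at -0.34 to -0.19. EBP had 6.32 and 6.15 in DCIS.COM pCDH-empty and 5.93 and 6.02 in DCIS.COM pCDH-HOTAIR, and 5.73 and 5.81 against 5.50 and 5.63 in MCF10A. Without DCIS.COM pCDH-empty 1 the fatty acid enzymes ACACA, ACSS2 and FASN had values of -0.24, -0.17 and -0.24. Among the sterol enzymes EBP went from -0.26 to -0.17, DHCR7 from -0.27 to -0.11, NSDHL from -0.21 to -0.11 and FDPS from -0.19 to -0.08. The 3 higher were INSIG2 (0.63 ± 0.21, limma adjusted p = 0.243), STARD4 (0.48) and HMGCS1 (0.26), and these are 3 of the low-GC members that read low in DCIS.COM pCDH-empty 1. Without that library their log2 fold changes were 0.25, 0.17 and 0.08, and with a GC correction of all libraries 0.44, 0.19 and 0.16. For IDI1 the log2 fold change was 0.55 with both empty-vector libraries and 0.00015 without DCIS.COM pCDH-empty 1. Leaving out that library took the count at an unadjusted p under 0.05 from 10 to 4, 3 lower and 1 higher (7.0% and 8.09% of all genes), and 5 members changed sign, MVK, SQLE, CYP51A1, SREBF2 and ELOVL6. Without DCIS.COM pCDH-empty 2, where the group rests on the library that stands apart, 5 members were called, and so were 10.2% of all genes.

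**Figure D5:**
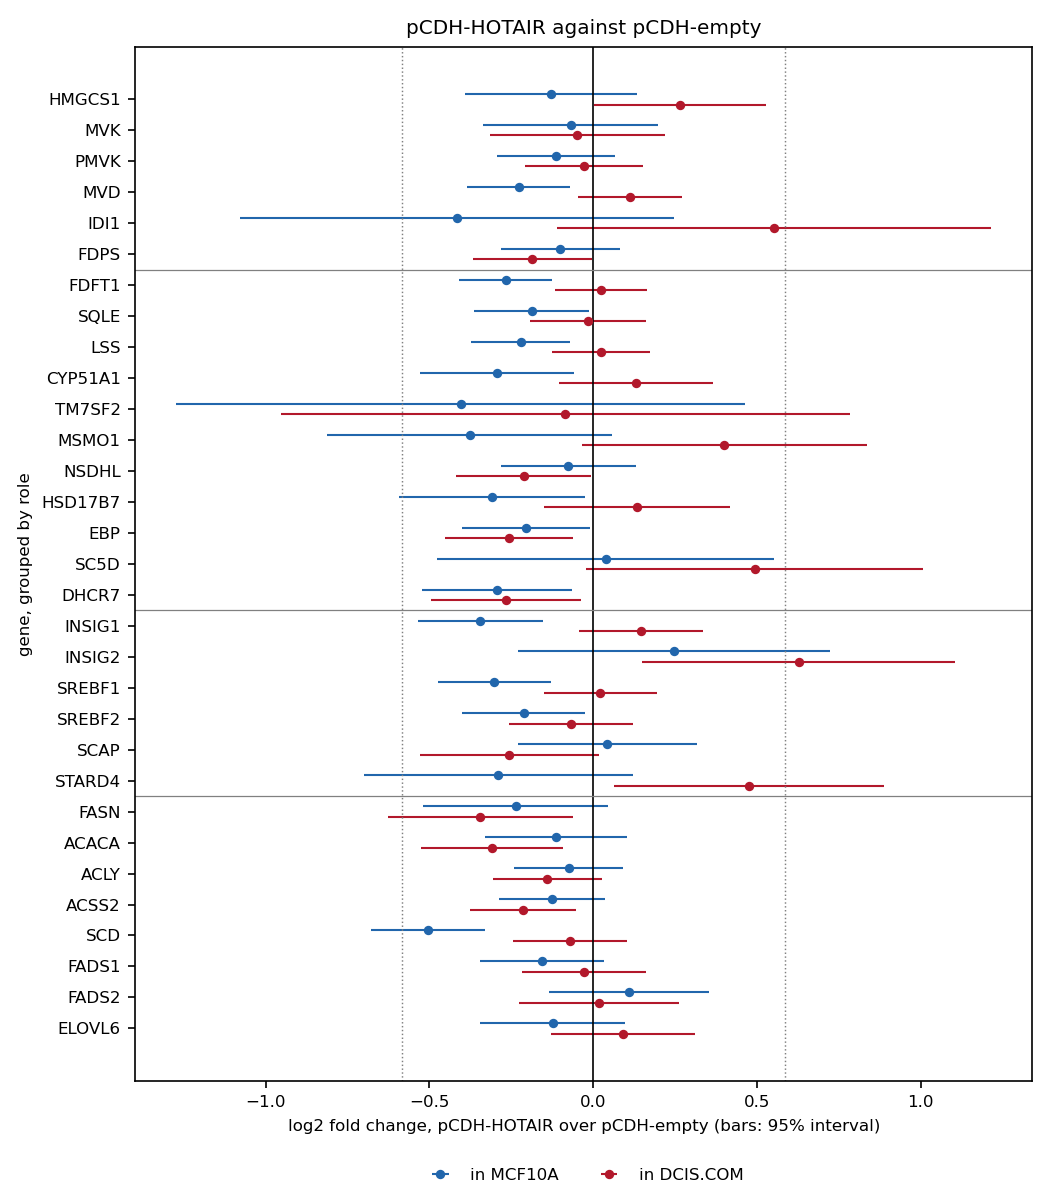
Points give each member's log2 fold change of pCDH-HOTAIR over pCDH-empty (horizontal axis) in MCF10A (blue) and DCIS.COM (red), bars the 95% interval from limma, and dotted lines the 1.5-fold threshold. The blue points lie below 0 for 27 of 31 members, from -0.50 (SCD) to 0.25 (INSIG2), and the red points spread on both sides, from -0.34 (FASN) to 0.63 (INSIG2).

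The third question was whether the effect of HOTAIR differed between the lines, tested as the log2 fold change in DCIS.COM minus that in MCF10A. No member passed an adjusted p of 0.05, and 0.0436% of all genes did. At an unadjusted p under 0.05 the difference was positive for 12 of 31 members and negative for none. At that level it was positive for 5.21% of all genes and negative for 735 of the 13771. The smallest p-values were those of INSIG1 (0.49 ± 0.12, limma adjusted p = 0.302), SCD (0.44 ± 0.11, limma adjusted p = 0.307), MVD (0.34), FDFT1 (0.29), STARD4 (0.77) and SREBF1 (0.32). For HMGCS1, MVD, HSD17B7 and STARD4 both HOTAIR libraries lay below both empty-vector libraries in MCF10A and above them in DCIS.COM, and SCAP did the reverse. These 5 are 16.1% of the members, and 11.0% of all genes had such opposite groups. This comparison uses the same libraries as the preceding ones and is no independent evidence of them. Without DCIS.COM pCDH-empty 2, 17 members passed an adjusted p of 0.05, 15 of them positive, and so did 32.1% of all genes. Without DCIS.COM pCDH-empty 1 no member passed, 13 were positive at an unadjusted p under 0.05 (7.31% of all genes), and the differences of INSIG1, SCD, MVD, FDFT1, STARD4 and SREBF1 were 0.39, 0.43, 0.33, 0.33, 0.46 and 0.38. Without DCIS.COM pCDH-HOTAIR 2 the count at an unadjusted p under 0.05 was 3 (2.77% of all genes positive), without MCF10A pCDH-HOTAIR 2 it was 4 (3.57%), and without MCF10A pCDH-empty 1 it was 5 (3.06%).

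The other genes around the pathway were counted on 7 lists, with 83 of 86 listed genes in the table. None of these genes was called for HOTAIR in either line, and the numbers below are for DCIS.COM over MCF10A with the empty vector, where 22.5% of all genes were called higher and 23.8% lower. Of the sterol efflux, storage and lysosomal transport list, 4 of 12 genes were called lower and 1 higher (median -0.27). The cholesterol exporters ABCG1 and ABCA1 had log2 fold changes of -5.14 ± 0.18 and -3.86 ± 0.16. ABCG1 had only 23 and 15 reads in the DCIS.COM pCDH-empty libraries, which limits the precision of its value. ABCA1 had a log2 CPM of 4.59 and 5.00 in MCF10A pCDH-empty and 0.90 and 0.98 in DCIS.COM pCDH-empty. The third was LIPA, the lysosomal acid lipase, at -0.91. The members and these 2 exporters thus lay on opposite sides, the members mostly higher and the exporters lower in DCIS.COM.

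Of the genes that supply cytosolic acetyl-CoA and NADPH, 4 of 9 were called higher and 2 lower (median 0.57). PGD, which makes NADPH in the pentose phosphate pathway, stood at 2.12 ± 0.08, and TKT, a transketolase of the same pathway, at 1.0. Of the fatty acid oxidation list, 7 of 16 genes in the table were called higher, none lower and 9 were not called (median 0.48). CPT1A, which admits fatty acids to mitochondria, led with 3.0 ± 0.11, from 4.03 and 4.08 log2 CPM in MCF10A pCDH-empty to 7.22 and 6.88 in DCIS.COM pCDH-empty, followed by ETFB at 1.59 and the carnitine carrier SLC25A20 at 1.39.

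The remaining lists were mixed. The other elongases, desaturases and acyl-CoA synthetases had 2 of 16 higher and 5 lower, among them the mitochondrial acetyl-CoA carboxylase ACACB at -3.82 ± 0.39, the desaturase SCD5 at 2.70 ± 0.09 and ACSL5 at -1.68. ACACB had only 5 and 1 reads in the DCIS.COM pCDH-empty libraries, so the size of its fold change is imprecise. In glycerolipid synthesis 3 of 10 were higher and 4 lower, with AGPAT4 at -2.59, LPIN2 at -1.30 and LPIN1 at 1.24. SREBP cleavage and turnover in the endoplasmic reticulum had 2 of 8 higher and 2 lower, with TRIB1 at 1.28 and RNF145 at 0.65. The isoprenoid branch had 2 of 12 higher and 1 lower, with RABGGTA at -0.98 and PDSS1 at 0.72. These lists had medians of 0.16, 0.04, -0.13 and 0.06.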

How the data were processed

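RNA-seq libraries of 4 groups (MCF10A or DCIS.COM with pCDH-empty or pCDH-HOTAIR, 2 each) were prepared with ScriptSeq and read as 76 nt paired ends. As the study's methods and the submitters' processing notes give it, the authors aligned reads to hg19 with Rsubread, counted them with featureCounts, normalized with edgeR and deposited log2 CPM. The deposited log2 CPM values start at a shared prior of 0.0717 CPM, and whole reads were recovered for 100% of values (within 0.1 reads). No per-sample column was left unused.

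Groups were taken from the sample labels. From the deposited log2 CPM of all 13771 genes, 5 contrasts of the 4 group means were tested over 8 libraries with limma 3.58.1 (lmFit, and eBayes with a trend; R 4.3.3), with Benjamini-Hochberg adjustment over all genes. A call needed an adjusted p under 0.05 and at least a 1.5-fold change, and the difference of the HOTAIR effect at an adjusted p under 0.05 alone. The fit was tested on simulated counts with changes larger than the members' HOTAIR effects and with no library that stands apart. That test therefore does not show how well changes as small as these would be found. Replicate 1 and 2 share only a number. Other steps used scipy 1.17.1, pandas 2.3.3 and numpy 2.4.6 in Python 3.11.15.

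Members, gene lists and tests were chosen with earlier results of these data known. All members are accounted for by role. Values in every library are given for the 8 members of largest change between the lines and for the regulators. They are also given for up to 6 members of smallest unadjusted p in each HOTAIR contrast. MSMO1 in every library, and IDI1, ABCA1 and CPT1A in some libraries only, were added after their values were seen. Called genes of related lists are named, at most 3 each, and some of them are not reported here. Exon length and GC content came from GENCODE release 44 on GRCh37, for 13148 genes (95.5%). Alternatives covered scaling, length and GC content, a mean CPM of at least 2, log2(CPM + 1), limma without the trend, limma-voom, a block, subsets of libraries and other fold thresholds. Precision is limited by 2 libraries a group and, for genes with few reads, by counting error. The phenotype, mouse, tumor and clinical data of the study were not analysed here.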

Additional observations from a re-analysis of the deposited data

How the results depend on the processing

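The count of members called between the lines stayed at 21 to 24 (pCDH-empty) and 23 to 24 (pCDH-HOTAIR) under every other scaling, filter, fit and left-out library that was run. It was 9 and 14 with a log2 fold change of at least 1.5 as the threshold, by construction. The members' median log2 fold change between the lines, 1.19 with pCDH-empty, was 1.24 under median centring and 1.24 under quantile normalization and 1.15 after GC correction, and 1.08 to 1.24 over the left-out libraries. With pCDH-HOTAIR it was 1.41 under quantile normalization and 1.33 to 1.44 over the left-out libraries. PMVK was no longer called with pCDH-empty after correction for gene length (0.57) or GC content (0.58).

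For HOTAIR in MCF10A no member was called in any alternative, the median ran from -0.21 to -0.17 over the left-out libraries, and the count at an unadjusted p under 0.05 (a count added after the data were seen) from 7 to 22. In DCIS.COM the members called ran from 0 to 5 over the left-out libraries, the median from -0.035 to 0.031, and the unadjusted count from 1 to 19. The median was 0.042 after GC correction, and the unadjusted count was 6 without the trend and 4 with only the 4 libraries of the comparison. For the difference between the lines the members called ran from 0 to 17 over the left-out libraries, the median from 0.18 to 0.24 and the unadjusted count from 3 to 19, and the median was 0.17 on the log2(CPM + 1) scale. The cause of these changes was not tested. A group left with a single library was assumed to vary like the others. The highest member counts in DCIS.COM and for the difference between the lines came without DCIS.COM pCDH-empty 2. Among the left-out libraries the counts over all genes were highest there too, so these member counts cannot be read as specific to the members.

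With the replicate block 23 and 24 members were called between the lines and 0 in each HOTAIR contrast, as without it. With the replicate block and GC correction together, a setting chosen after seeing the data, 22, 24 and 0 were called. The replicate numbers did not pair the libraries, since the correlations of their differences between groups ran from -0.02 to 0.07. Of the single members' fold changes that were called between the lines or had an unadjusted p under 0.05 in a HOTAIR contrast (81 in all), none changed sign in 1446 recomputations, 13 recomputations lost a call and 14 gained one. These 81 were picked from the same data, and some settings, such as leaving out a library of another group, cannot change a fold change. The HOTAIR results among them had no call to lose. Stable signs were thus largely fixed in advance and lend these results no further support. Among the members, the depth limits TM7SF2 most, with 15 reads in a library.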
